A study of Homo sapiens with 2 samples.

Results

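The AP-1 transcription factor genes and 3 further early response genes were examined in CL1-5 cells with and without analogue 3. They comprised the FOS family (FOS, FOSB, FOSL1 and FOSL2), the JUN family (JUN, JUNB and JUND), EGR1, IER2 and IER3. All array probe sets whose platform annotation named exactly 1 of these genes were taken, which gave 10 genes of 19775, read by 22 of 41091 single-gene probe sets. CL1-5 is an established, highly invasive line of human lung adenocarcinoma. The analogue 3 culture received 0.11 µM of the compound for 24 h, which the submitters give as its median effective dose in this line. The compound is a desmosdumotin C analogue with iodo, tripropyl and methoxy substituents. The control culture received the solvent DMSO for 24 h, with a concentration of 0.05 µg/mL in the labels. Each culture gave 1 array, so there was no replicate, no error across cultures and no test. A single line, dose and time were sampled.

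AP-1 is a dimer held together by leucine zippers. JUN proteins can pair with each other or with FOS proteins, whereas FOS proteins need a JUN partner to bind DNA. The dimers bind the motif TGANTCA with C or G in the middle, or the related cyclic AMP response element TGACGTCA. Early response genes are switched on within minutes of growth factor, stress or cytokine signals, through kinases that act on factors already bound at their promoters, and FOS and EGR1 transcripts are short-lived. In carcinoma cells, AP-1 is known for driving protease and cytokine genes of invasion, and FOSL1 is the FOS family member most often linked to it.

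Intensities are linear values deposited by the authors. Each array has a median of 1, so they are read here as relative to the array median, which no label states. A floor of 8 times the array median (log2 3) was used. A gene was measured if its brightest probe set reached the floor on at least 1 array, and values under the floor were raised to it before differences were taken. Differences are log2 analogue 3 minus log2 DMSO. In all, 8523 genes were measured, 7737 of them on both arrays, with a median difference of -0.05 and quartiles of -0.36 and 0.24. As a guide to technical error, the log2 difference read by 1 probe set had an SD of 0.23, estimated from the brightest pair of probe sets of each of 2874 genes. This SD leaves out culture, RNA and hybridisation error. Of 5 epithelial markers, KRT8 read 77.8 with analogue 3 and 42.3 with DMSO (log2 0.88), and KRT18 read 457.9 and 460.8 (log2 -0.01). KRT19 was under the floor at 5.23 and 2.24, and EPCAM and CDH1 lay between 0.339 and 0.536. The 4 leukocyte markers summed to 2.55 with analogue 3 and 3.07 with DMSO, the 4 fibroblast markers to 7.10 and 5.47, and the 3 endothelial markers to 17.9 and 13.4, nearly all of it PECAM1.

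EGR1 and JUND were lower with analogue 3 by more than 2-fold, JUNB, IER2 and IER3 were lower by smaller amounts, and JUN differed little. The measured FOS family genes, FOSL1 and FOSL2, lay slightly higher. Of the 10 genes, 8 were measured, all of them with both values above the floor. Among these 8, 2 were at least 2-fold lower, where 3.92% of all measured genes were, and 0 were at least 2-fold higher, where 3.74% of all measured genes were. The median difference over the 8 was -0.59, and 6 lay below 0, against 55.5% of all measured genes. Of the 22 probe sets, 12 were above the floor on both arrays, 1 on a single array and 9 on neither. EGR1, JUND and IER3 are represented by probe sets ending in _s_at, which can match more than a single transcript. Without _s_at and _x_at probe sets these 3 genes were lost, the count of 2-fold lower genes was 0 of 5, and the median turned to 0.15. The arrays average over each culture, so a lower level in every cell and a loss from a share of the cells cannot be told apart.

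**Figure D1:**
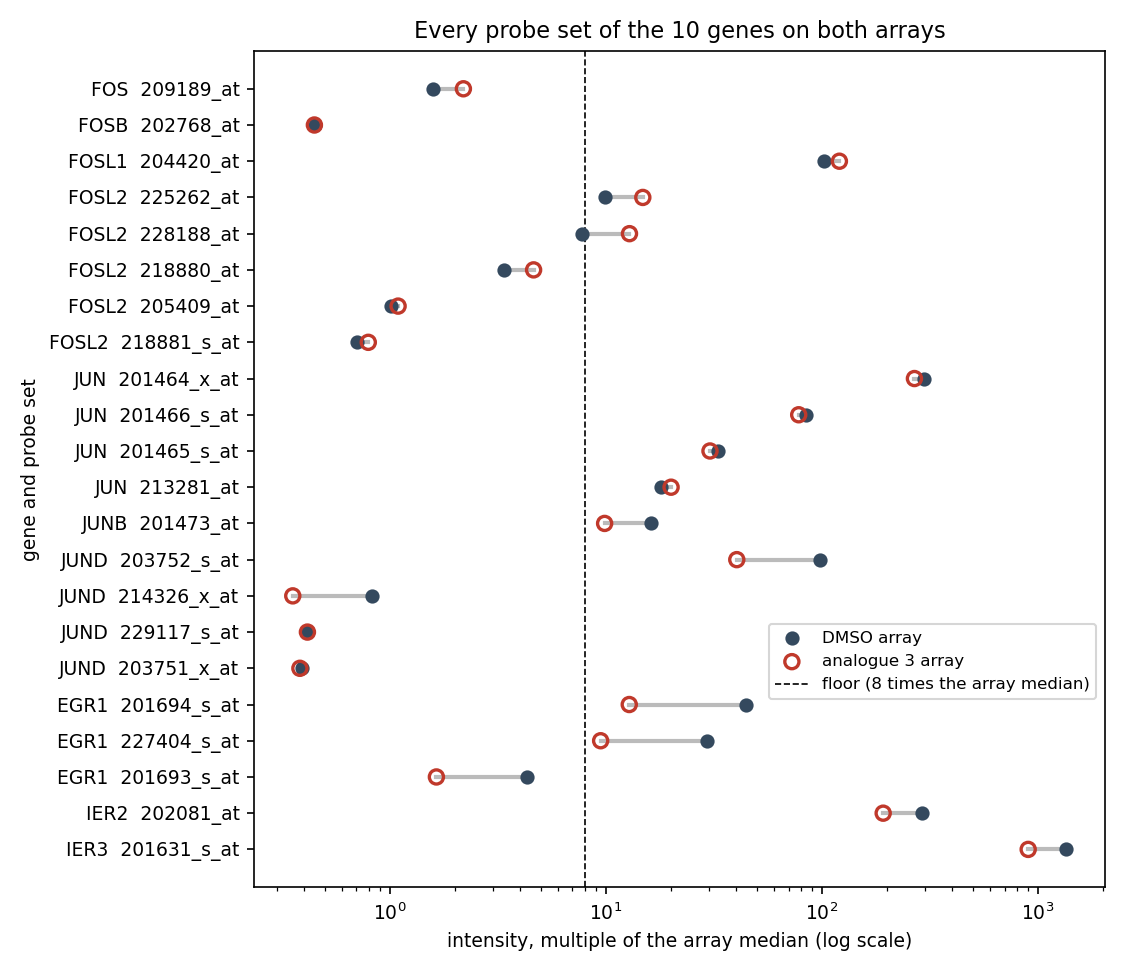
Intensity of each of the 22 probe sets on the DMSO array (filled) and the analogue 3 array (open), as multiples of the array median on a log axis, with the floor dashed. EGR1 and JUND 203752_s_at show the widest gaps above the floor, whereas FOS and FOSB lie under it on both arrays.

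Of the JUN family, JUND, which is present in resting cells of many types and less dependent on induction than its relatives, had the largest difference. Its brightest probe set 203752_s_at read 40.3 on the analogue 3 array against 97.5 on the DMSO array, or 2.42-fold lower (log2 -1.27). Of the other measured genes, 167 (1.96%) were as low or lower. The other 3 JUND probe sets lay under 1 on both arrays. In 214326_x_at the values were 0.355 and 0.829, and in 203751_x_at and 229117_s_at the arrays differed by -0.03 and 0.00 on the log2 scale. JUND therefore rested on a single probe set with signal, and with the median of its probe sets it was not measured. How these probe sets map along the JUND transcript was not analysed here.

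JUNB, which can restrain JUN and is itself quickly induced, had 1 probe set. It read 9.86 with analogue 3 against 16.2 with DMSO, or 1.64-fold lower (log2 -0.71). Both values were close to the floor. With a floor of log2 4 the analogue 3 value is hidden and only a bound of -0.01 is left. Of the other measured genes, 9.02% were as low or lower. Of 1669 genes of like level (within 0.5 log2 units), 14.1% were, by differences taken without the floor. The 2 shares are therefore not on the same measure.

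JUN, the founding AP-1 member and a strong activator, was measured by 4 probe sets, all above the floor on both arrays. The brightest, 201464_x_at, read 267.9 with analogue 3 and 297.2 with DMSO (log2 -0.15). Probe set 201466_s_at read 78.0 and 84.4, and 201465_s_at read 30.3 and 33.0. Only 213281_at ran the other way, with 20.0 with analogue 3 and 18.0 with DMSO. The 4 log2 differences lay between -0.15 and 0.15, each smaller than the probe set SD of 0.23. Both signs occur among the probe sets, so no direction is given for JUN.

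Of the FOS family, FOSL1, which encodes FRA-1, was read by 1 probe set. It gave 120.4 with analogue 3 against 101.8 with DMSO, or 1.18-fold higher (log2 0.24). That is about the size of the probe set SD, and 24.9% of the other measured genes were as high or higher.

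FOSL2, which encodes FRA-2, was higher in its brightest probe set 225262_at, at 14.8 with analogue 3 against 9.86 with DMSO (log2 0.59). Of the other measured genes, 9.55% were as high or higher. Probe set 228188_at read 12.9 and 7.76, so that only the analogue 3 array reached the floor. The other 3 probe sets read between 0.703 and 4.62, under the floor on both arrays.

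FOS and FOSB, the FOS family genes that are most strictly dependent on fresh induction, were under the floor on both arrays. The FOS probe set read 2.19 with analogue 3 and 1.58 with DMSO. The FOSB probe set read 0.447 and 0.452. No fold is given for either gene, and a change at this level was not detectable.

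When the families were set side by side, the 3 measured JUN genes had a median difference of -0.71 and the 2 measured FOS genes a median of 0.41. The JUN median was lower than the FOS median by a difference of -1.13 on the log2 scale. These few values did not overlap. The highest JUN family value was -0.15, for JUN, to which no direction was given, and the lowest FOS family value was 0.24, for FOSL1. FOS and FOSB, under the floor, did not enter. Values of so few genes separate easily, and how often other genes would do so was not tested. The gap of 0.39 between the highest JUN and lowest FOS family values is under 2 probe set SDs, and it carries the error of 2 probe sets. Under alternatives added after seeing the data it was 0.26 with a floor of log2 4, 0.13 with no floor and 0.09 without _s_at and _x_at probe sets, where JUN is read by 213281_at. It rests on 5 genes on 2 arrays, and genes of a family are not replicates. Over the alternatives the family difference kept its sign and lay between -0.39 (floor of log2 4) and -1.13. The value of -0.39 arises because JUNB then enters as a bound close to 0 and FOSL2 is no longer measured.

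**Figure D2:**
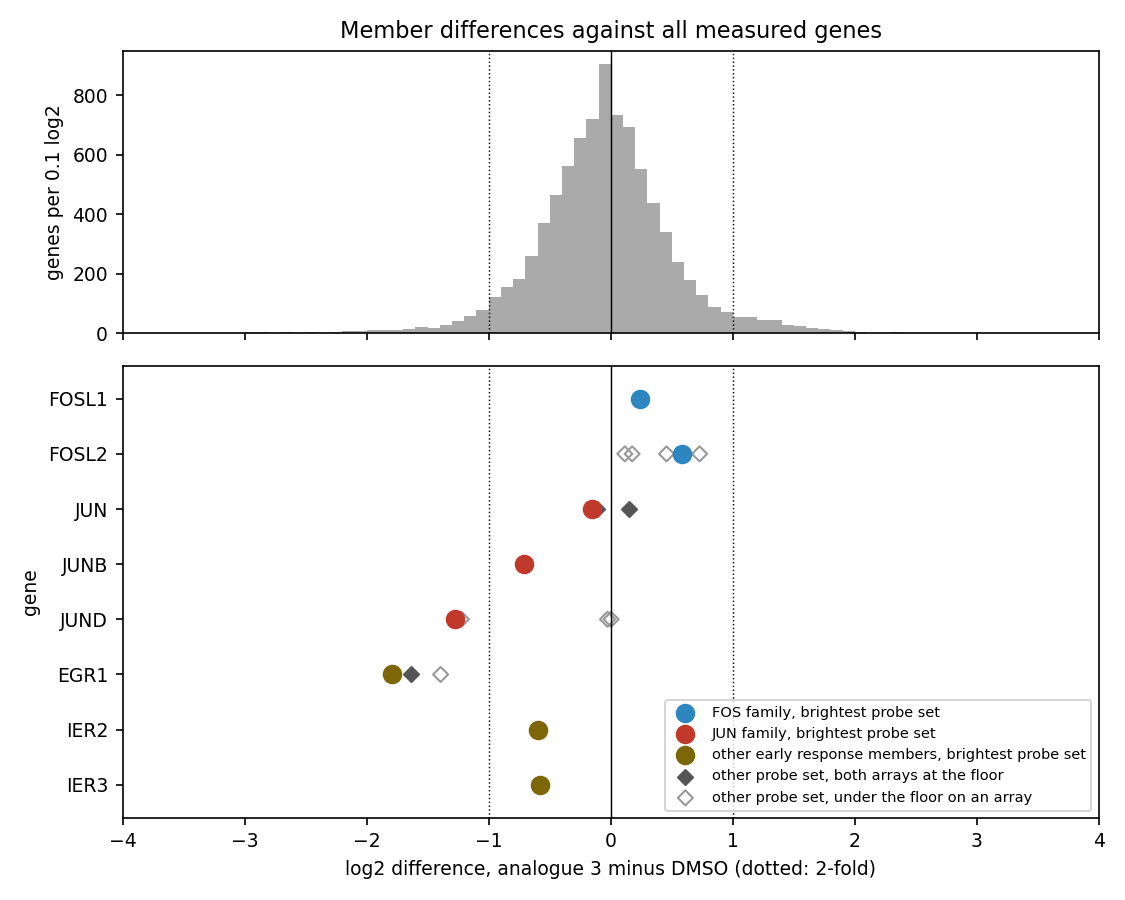
Upper panel, log2 differences of the 8523 measured genes. Lower panel, the 8 measured members, with the brightest probe set as a large point coloured by family, and the other probe sets as diamonds (open where under the floor on an array, plotted without the floor). EGR1 and JUND lie beyond the dotted 2-fold line on the lower side, and FOSL1 and FOSL2 lie above 0.

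Of the other early response members, EGR1, a zinc finger transcription factor induced by growth factor and stress signals, had the largest difference of the 10 genes. Its brightest probe set 201694_s_at read 12.8 with analogue 3 against 44.4 with DMSO, or 3.46-fold lower (log2 -1.79). Probe set 227404_s_at read 9.45 and 29.4 (log2 -1.64). The third probe set, 201693_s_at, read 1.64 and 4.31, under the floor on both arrays, and is not read as a direction. Only 62 of the other measured genes (0.728%) were as low or lower. Among 1821 genes whose mean level lay within 0.5 log2 units of EGR1, 14 were as low or lower, by differences taken without the floor. With a floor of log2 5 the analogue 3 value is hidden and only a bound of -0.47 is left.

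IER2, a nuclear protein gene of the early serum response, had 1 probe set, at 192.0 with analogue 3 against 290.1 with DMSO, or 1.51-fold lower (log2 -0.60). IER3, an early response gene that modulates cell survival and ERK signalling, read 900.7 against 1349 (log2 -0.58). The values of both genes were far above the floor. Of the remaining measured genes, 12.5% were as low as IER2 or lower and 13.0% as low as IER3 or lower. Among the 135 genes of like level to IER3, 6 were as low or lower, by differences taken without the floor. Differences of this size are larger than the probe set SD of 0.23, but whether they exceed the spread between cultures cannot be told with 1 array each.

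The upstream sequences of 4 genes are shown to set EGR1 and JUND, the 2 members past 2-fold, and FOSL2, the measured member with the largest difference upward, beside JUN, whose arrays differed little. Each is the 250 bases before the RefSeq start site in GRCh38.p14, at chr5:138465229-138465478 on the plus strand for EGR1, chr19:18281623-18281872 on the minus strand for JUND, chr2:28392608-28392857 on the plus strand for FOSL2, and chr1:58784048-58784297 on the minus strand for JUN. Capitals mark TGACG on either strand (CGTCA where it lies on the other strand), a 5-letter core of the cyclic AMP response element, the 8-letter form TGACNTCA, and the CArG box, the binding motif of serum response factor.
EGR1: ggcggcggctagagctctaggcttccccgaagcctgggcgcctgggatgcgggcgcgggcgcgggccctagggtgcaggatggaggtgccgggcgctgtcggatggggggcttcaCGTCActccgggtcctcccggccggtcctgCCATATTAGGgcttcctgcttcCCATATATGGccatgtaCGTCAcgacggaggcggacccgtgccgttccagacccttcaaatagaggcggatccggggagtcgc
JUND: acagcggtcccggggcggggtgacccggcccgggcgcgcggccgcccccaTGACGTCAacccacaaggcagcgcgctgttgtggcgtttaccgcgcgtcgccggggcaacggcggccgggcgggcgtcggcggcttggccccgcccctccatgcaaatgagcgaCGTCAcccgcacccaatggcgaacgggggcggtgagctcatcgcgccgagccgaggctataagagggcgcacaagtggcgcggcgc
FOSL2: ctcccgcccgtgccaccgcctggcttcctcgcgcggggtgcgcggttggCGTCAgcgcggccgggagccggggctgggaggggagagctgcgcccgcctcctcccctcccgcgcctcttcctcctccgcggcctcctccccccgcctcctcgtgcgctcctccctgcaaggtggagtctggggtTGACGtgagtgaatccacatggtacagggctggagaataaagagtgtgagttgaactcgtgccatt
JUN: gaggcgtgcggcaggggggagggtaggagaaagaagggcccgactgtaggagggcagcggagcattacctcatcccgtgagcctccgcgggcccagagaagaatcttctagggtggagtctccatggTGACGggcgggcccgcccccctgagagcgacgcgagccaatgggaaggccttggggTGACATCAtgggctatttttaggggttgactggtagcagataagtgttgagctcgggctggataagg

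EGR1 held 2 CArG boxes, at 105 to 96 and 83 to 74 bases before the start. It was the only member of the 8 in the promoter table to hold one in this window. These 8 are not the 8 measured members, since they include FOS and FOSB and leave out FOSL1 and IER3. A CArG box was found in 1.16% of all 35116 promoters in the same window. JUND held the full element TGACGTCA at 200 to 193 bases before the start, which 1.65% of all promoters held. JUN held TGACATCA, a form of TGACNTCA, at 67 to 60 bases before the start, and 6.87% of all promoters held TGACNTCA on either strand. TGACNTCA includes TGACGTCA, which in turn contains TGACG on both strands. The core TGACG was present in 8 of 8 member promoters and in 21.2% of all promoters. The members were richer in G and C, at 62.0% to 74.8%, than the median promoter at 58.0%, and the part of base composition in this count was not tested. The motif TGANTCA with C or G in the middle was in 0 of 8 member windows and in 4.20% of all promoters. Such matches describe letters and do not show that a factor bound there.

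Beyond the 10 genes, 5 lists of related genes were examined: other bZIP partners, other early response genes, AP-1 target genes, upstream kinases and inducing factors, and turnover and cofactor genes. Of their 58 distinct measured genes, 8 were at least 2-fold lower (13.8%, against 3.92% of all measured genes). At least 2-fold higher were 0, against 3.74% of all measured genes. The 8 all lay among partners, early response genes and targets. Like the members, the lists were chosen with earlier results of these data known, so these shares describe the lists and test nothing. Under alternatives added after seeing the data, the count was 5 of 52 with a floor of log2 4, where 3.15% of all measured genes were 2-fold lower. It was 3 of 39 with a floor of log2 5 (2.67% of all genes) and 4 of 43 with genes represented by their median probe set value (3.40%). It was 11 of 78 with no floor (3.66%), 10 of 58 after quantile normalization (3.53%) and 9 of 57 after loess removal (3.38%).

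Other bZIP genes, whose products can dimerise with JUN or FOS proteins or share their sites, had a median difference of -0.59 over 7 measured genes of 12 listed. The difference was negative in 6, against 55.5% of all measured genes, and 3 were at least 2-fold lower, against 3.92%. ATF3, a stress-induced repressor or activator that pairs with JUN proteins, read 2.97 with analogue 3 and 24.9 with DMSO, at least 3.11-fold lower against the floor. JDP2, a repressor that pairs with JUN, read 2.97 and 29.8, at least 3.73-fold lower. MAFF, a small MAF protein gene without an activation domain, read 148.4 and 309.1, or 2.08-fold lower (log2 -1.06), and its dimmer probe set gave -0.85. With the median of its probe sets MAFF was at -0.96, just under 2-fold. ATF2, a kinase-activated JUN partner, read 245.7 and 296.0, which is -0.27 on the log2 scale, and its dimmer probe set gave 0.13. MAFG read 54.9 and 80.9 (log2 -0.56). ATF3 and JDP2 were thus low on the analogue 3 array to the point of lying under the floor, and their bounds depend on it. With a floor of log2 4 the bounds were -0.64 and -0.90, which are under 2-fold.

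Other early response genes had a median of -0.40 over 12 measured genes of 22 listed. The difference was negative in 8, against 55.5% of all measured genes. It was at least 2-fold lower in 4, where 3.92% of all measured genes were. ATF3, given above, is 1 of these 4. PPP1R15A, which encodes the GADD34 subunit that directs dephosphorylation of eIF2α, read 9.73 with analogue 3 against 35.1 with DMSO, or 3.61-fold lower. SGK1, a serum- and glucocorticoid-induced kinase gene, read 29.9 and 83.6, or 2.79-fold lower. GADD45B, a stress sensor upstream of p38 and JNK, read 10.3 and 27.8, or 2.69-fold lower (log2 -1.43), and a dimmer probe set gave -1.10. With a floor of log2 4 GADD45B had a bound of -0.80, and with the median of its probe sets it was at -0.58, both under 2-fold. With a floor of log2 5 the analogue 3 value of PPP1R15A is hidden and only a bound of -0.13 is left. The brightest genes of the list differed less. GADD45A read 456.4 and 664.8 (log2 -0.54), MCL1, a survival gene of the BCL2 family, read 395.8 and 520.7 (log2 -0.40), and IER5 read 315.8 and 292.5 (log2 0.11). The relatives EGR3 and EGR4 and the nuclear receptor genes NR4A1, NR4A2 and NR4A3, which were picked out after their values were seen, were under the floor on both arrays, as FOS and FOSB were. Upward differences were found in 4 of the 12 measured genes, IER5 among them. The largest was that of CCN1, which read 188.3 and 110.1 (log2 0.77), and its dimmer probe set gave 0.78. TOB1 was at 0.41, with 0.18 in its dimmer probe set, and IER5L was at 0.30. CCN1, TOB1 and IER5L were chosen with their values known. Without _s_at and _x_at probe sets the list median was -0.09.

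AP-1 target genes had a median of -0.70 over 15 measured genes of 20 listed, all above the floor on both arrays. The difference was negative in 12, against 55.5% of all measured genes. It passed 2-fold downward in 2, where 3.92% of all measured genes did, and upward in 0, where 3.74% did. The 2 were MMP1, the interstitial collagenase gene with a well-known AP-1 site, at 178.9 with analogue 3 and 747.6 with DMSO (4.18-fold), and the cytokine gene IL6, at 18.6 and 57.2 (3.07-fold). With a floor of log2 5 IL6 had a bound of -0.84, which is under 2-fold. VEGFA, an angiogenic factor gene, read 208.7 and 415.9 (log2 -0.99), and its 2 other probe sets differed by -0.70 and -0.27. PLAU, the urokinase gene, read 298.2 and 525.6 (log2 -0.82), and its dimmer probe set gave -0.73. The highest value of the list was 0.73, for CCND1, whose dimmer probe set gave 0.37. CD44 read 125.5 and 114.0 (log2 0.14) in its brightest probe set. Its 6 dimmer probe sets above the floor gave larger values, from 0.46 to 0.85, so the value entered for CD44 was the smallest of these. Both genes were singled out after their values were seen. These targets also answer to factors other than AP-1, and the part of AP-1 in their values was not tested.

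The list of upstream kinases and inducing factors had a median of -0.04 over 16 measured genes of 23 listed, which turned to 0.01 after removal of a loess trend. Of these 16, 0 were 2-fold different either way, where 3.92% of all measured genes were lower and 3.74% higher. Within 0.5 log2 units of 0 lay 14 (87.5%), as did 71.2% of all measured genes. The other two, named after their values were seen, were the ternary complex factor gene ELK4 (42.9 and 71.6, log2 -0.74) and MEF2A (18.2 and 28.2, log2 -0.63), a factor that acts at the JUN promoter. Dimmer probe sets gave -0.44 for ELK4, and -0.92 and -0.70 for MEF2A. MAPK9, which encodes the JNK2 kinase of JUN, read 120.7 and 113.0 (log2 0.10), and its 2 other probe sets above the floor gave -0.08 and 0.08. CREB1, the cyclic AMP response factor, read 52.4 and 59.1 (log2 -0.17). Its 5 other probe sets above the floor lay between -0.13 and 0.46, so its sign was mixed. ELK3, a ternary complex factor that acts with serum response factor, read 236.4 and 243.2 (log2 -0.04). These are transcript levels and say nothing of kinase activity. Turnover and cofactor genes had a median of -0.03 over 10 measured genes of 11 listed, which turned to 0.01 with median centring, 0.03 after loess removal and 0.02 after quantile normalization. COPS5, a JUN-binding signalosome subunit, read 548.7 and 546.1 (log2 0.01). ZFP36L1, which promotes decay of AU-rich transcripts, read 301.2 and 337.8 (log2 -0.17), and its dimmer probe set above the floor gave -0.48. ELAVL1, whose product HuR binds AU-rich transcripts, read 292.5 and 148.9 (log2 0.97), and its dimmer probe set above the floor gave 0.50. With median centring ELAVL1 was at 1.02, just past 2-fold. Its value turned to -0.14 with the median of its probe sets, which takes in probe sets not above the floor on both arrays.

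**Figure D3:**
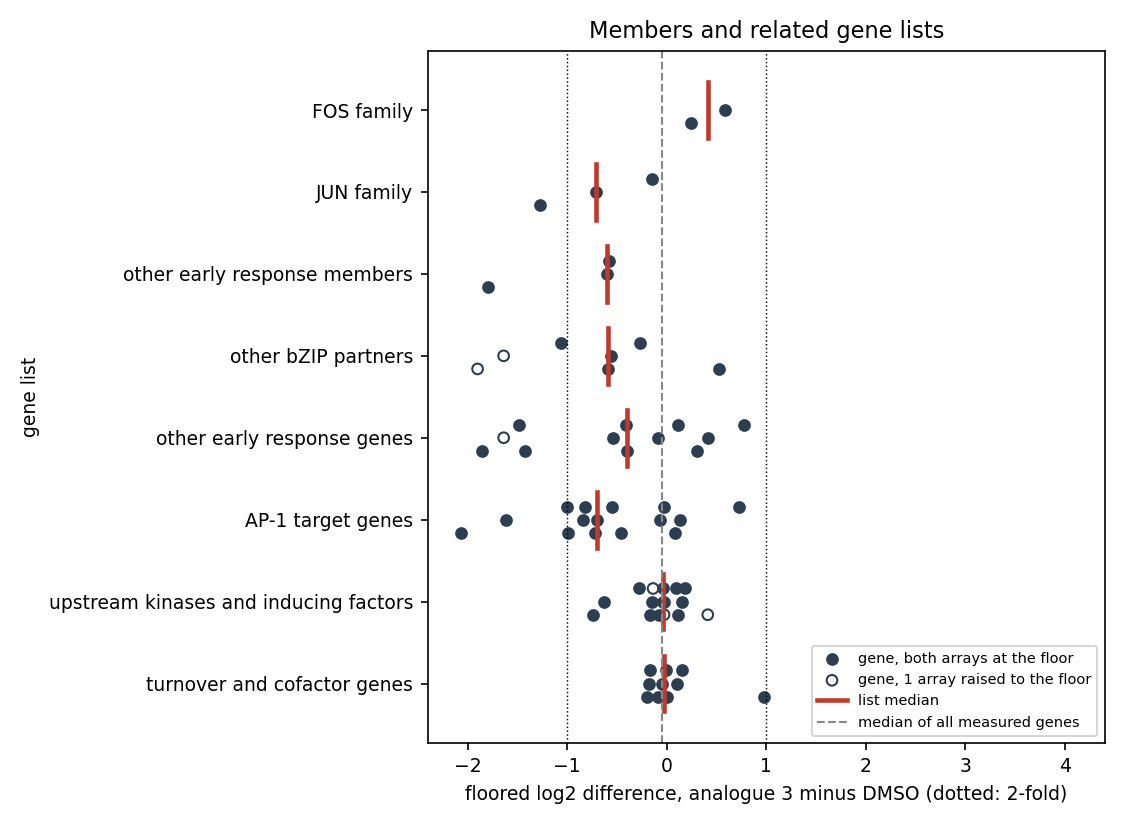
Floored log2 differences of the measured genes of the 3 member groups and the 5 related lists, 1 point per gene (open where an array was raised to the floor), with list medians as bars and the median of all measured genes dashed. Partner, early response and target lists have medians from -0.40 to -0.70, and the upstream and turnover lists have medians of -0.04 and -0.03.

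Across the processing alternatives, all measured members except JUN kept their direction wherever they were measured. JUND lay between -1.27 and -1.23, IER2 between -0.64 and -0.55, IER3 between -0.65 and -0.54, FOSL1 between 0.20 and 0.28, and FOSL2 between 0.59 and 0.68. EGR1 lay between -1.79 and -0.47, with the smallest size at a floor of log2 5. The JUND range comes from a single probe set above every floor tried, so the floors could not move it. The same holds for the only probe sets of FOSL1, IER2 and IER3. JUND was lost with the median of probe sets, and JUND, EGR1 and IER3 were lost without _s_at and _x_at probe sets. JUN ranged from -0.21 to 0.15. JUNB ranged from -0.71 to -0.01, the latter a bound with a floor of log2 4.

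**Figure D4:**
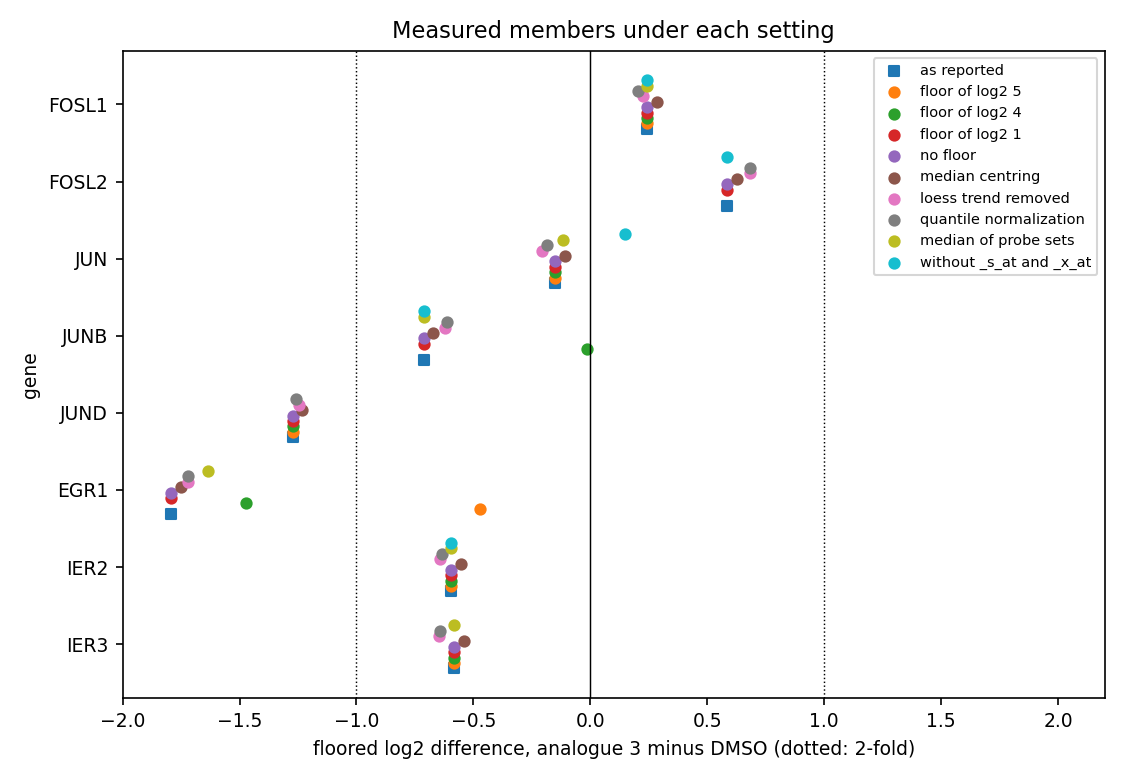
Log2 difference of each of the 8 measured members under the reported setting (square) and 9 alternatives (circles, missing where the gene is not measured). JUND stays beyond the dotted 2-fold line wherever it is measured, and EGR1 crosses it only with a floor of log2 5. The JUND values all come from the same probe set, which lies above every floor, so the floors could not move them. JUND is missing with the median of probe sets, and both genes are missing without _s_at and _x_at probe sets.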

How the data were processed

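Total RNA of 2 CL1-5 cultures was measured on 1 array each, Affymetrix U133 Plus 2.0. Per the submitters' processing notes, GCRMA (background correction by probe sequence, quantile normalization, summarisation) was used; its version is not given in the sources used here. Intensities deposited by the authors are on a linear scale with an array median of 1; division by that median is read from the values. Columns sorted by size differed by at most 0.14 (log2). The number of arrays limits precision.

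Of 54675 probe sets, GEO's platform annotation gave several genes for 1801 and did not list 11777; 41037 of the 41091 used matched RefSeq (GRCh38.p14) by gene number. Each gene was represented by its probe set of highest mean log2 intensity. The floor of log2 3 replaces the stricter log2 5 of an earlier analysis; 26.0% and 26.8% of probe sets reached it. Members and lists were chosen with earlier results of these data known. Genes named outside the members were those at least 2-fold different and the 3 brightest of each list; others are marked as chosen after their values were seen. No test was possible without replicates; lists are described by counts and medians. Alternatives were other floors, scalings, probe set rules and fold thresholds (1.5 and 3). The procedure was tested on simulated data. Python 3.11.15, pandas 2.3.3 and statsmodels 0.14.6 (loess, span 0.3) were used.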

Additional observations from a re-analysis of the deposited data

How the results depend on the processing

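The count of 2 members at least 2-fold lower was unchanged by floors of log2 4 and log2 1, no floor, and the 3 scalings. It was 1 with a floor of log2 5 (2.67% of all measured genes), 1 with the median of probe sets (3.40%) and 0 without _s_at and _x_at probe sets (4.16%). It was 4 at a 1.5-fold threshold, which 12.9% of all measured genes passed downward, and 1 at a 3-fold threshold (1.06%). The count of members at least 2-fold higher was 0 except at a 1.5-fold threshold, where it was 1, against 9.60% of all genes. The median of the members moved from -0.59 to 0.15 without _s_at and _x_at probe sets, over 5 genes. The JUN family median moved from -0.71 to -0.15 with a floor of log2 4, -0.42 with the median of probe sets and -0.28 without _s_at and _x_at probe sets. The difference of the JUN and FOS medians moved from -1.13 to -0.39, -0.66 and -0.70 under the same alternatives. Fewer JUN or FOS genes, or other probe sets of them, enter under these alternatives. The FOS family median moved by less than the probe set SD. Of the values for single genes and other lists, 281 moved by less than that SD of 0.23 or, for the count over the related lists, stayed within 1.5 times, and 24 moved by more, and no gene that was 2-fold different changed sign. The genes measured numbered 8523, or 5050 with a floor of log2 5, where 135 were 2-fold lower and 175 higher, against 334 and 319 as reported. With no floor these were 724 and 475. No paired analysis was possible because each group had 1 array.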
